A study of Mus musculus with 4 samples.

Results

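The genes described here are 10 transcriptional targets of the tumour suppressor p53: Cdkn1a, Mdm2, Ccng1, Phlda3, Bax, Bbc3, Trp53inp1, Aen, Sesn2 and Eda2r. They were taken by symbol from the gene list of the deposited count tables, where each of the 10 matched 1 of 32285 genes, and their unique molecular identifiers (UMIs, 1 per captured transcript molecule) were followed in 4 libraries and in cell classes gated on marker genes. All 10 had UMIs in non-cycling microglia, the resident macrophages of the brain. There, 7 of the 10 reached a mean of 10 CPM (UMIs of a gene in the summed cells, scaled to one common library size) over the 4 libraries, as did 9150 genes in all, and Phlda3, Sesn2 and Eda2r did not.

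The study asked how immune cells of the brain differ after cardiac arrest in young and in aged wild-type C57Bl/6 mice. A young sham library and a young cardiac arrest (CA) library came from mice of 3 to 6 months, and an aged sham library and an aged CA library came from mice of 18 to 20 months. CA was brought on with potassium chloride and followed by resuscitation, shams had the surgery without it, and brains were taken on day 3. Each group was 1 library pooled from 3 mice whose cells cannot be told apart, so no comparison between groups has replicates, and the 95% intervals given below cover counting error only. After perfusion the brains were broken up mechanically, and leukocytes were enriched on Percoll, sorted by their surface protein CD45 and put through 10x Genomics 3' droplet sequencing. Wherever 4 values follow each other, young mice come before aged mice and sham before CA within each age.

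p53 is a transcription factor that is held low by its target Mdm2, a ubiquitin ligase, and that accumulates when DNA is damaged or a cell is otherwise stressed. Its targets halt the cell cycle, set off apoptosis, adjust metabolism and, through Mdm2, end the response. Several of these genes also answer to other factors, so their transcripts are not a readout of p53 alone.

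The promoter of Cdkn1a is shown because Cdkn1a had the largest CA to sham ratio at both ages among the 7 more abundant genes. The stretch is the 250 bases before a RefSeq transcription start on GRCm38.p6, chr17:29090729-29090978, plus strand. Capitals mark 1 p53 half-site of 10 bases and, after it, 1 full site made of 2 adjoining half-sites.

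Cdkn1a: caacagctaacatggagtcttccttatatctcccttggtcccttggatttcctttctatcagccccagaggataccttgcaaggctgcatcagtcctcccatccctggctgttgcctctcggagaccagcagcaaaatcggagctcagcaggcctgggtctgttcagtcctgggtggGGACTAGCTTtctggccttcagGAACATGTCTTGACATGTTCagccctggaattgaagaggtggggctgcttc

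The full site lies at chr17:29090928-29090947, begins 51 bases before this start, matches the p53 consensus with 1 mismatch, and lies 2841 bases upstream of a second annotated Cdkn1a start whose own window held no match. RefSeq windows from 250 bases before to 50 bases after a start were found for 9 of the 10 genes, 13 windows in all, and were searched on both strands for the p53 half-site consensus with no mismatch and for full sites with at most 1 mismatch. Half-sites were found for 4 other genes, shown here for comparison with the Cdkn1a sites.

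Mdm2: GAACTTGCCT
Ccng1: GGGCAAGCCT
Bax: AGGCAAGCTT
Aen: GGGCTTGTCC

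They lie at chr10:117710935-117710944, chr11:40755462-40755471, chr7:45467090-45467099 and chr7:78895937-78895946 in that order, and both Aen windows hold the same site. A half-site was thus in 6 of the 13 windows (46.2%) and in 2745 of 32851 windows of all genes (8.36%), and a full site was in 1 of the 13 and in 18 of all windows (0.0548%). A match describes letters and is not a measured site. The genes were picked as known targets, so their share is no independent observation.

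Quality filters kept 8730, 10131, 7538 and 5888 cells of the 4 libraries. Non-cycling microglia made up 8017, 8103, 5173 and 4587 of them, their median depth was 6166, 9133, 3695 and 10829 UMIs, and their median mitochondrial share was 1.70%, 2.54%, 1.99% and 3.73%. All 10 microglial markers were detected in them in each library, at 23171, 14579, 19407 and 9805 summed CPM. The gate required UMIs of these same markers, so their presence does not test the label. The aged sham library stood apart, with the shallowest cells, 1323 cells that carried markers of more than 1 class and were left out, and 24.9 CPM of haemoglobin transcripts in its microglia against 1.23 to 2.84 CPM in the others. Within non-cycling microglia the 10 neuronal markers summed to 254, 143, 382 and 163 CPM and the 10 neutrophil markers to 536, 427, 674 and 183 CPM, with Ly6g at 0 in aged CA. The 8 monocyte markers, all detected in each library, summed to 9.32, 40.2, 23.1 and 8.94 CPM. The part of these differences in the results below was not tested. Pairs of libraries shared 15 to 32 barcodes.

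**Figure D1:**
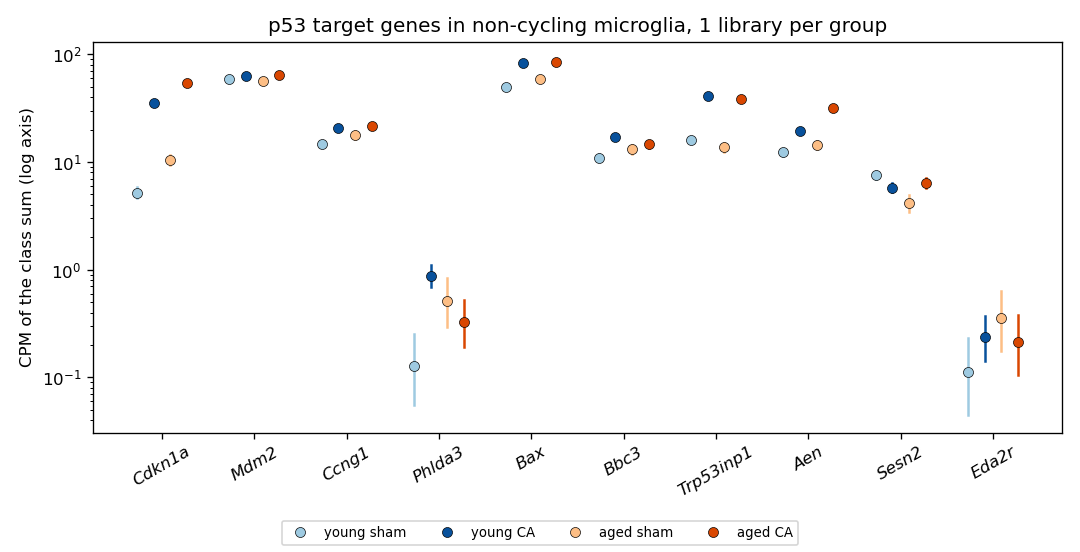
Level of each of the 10 genes in non-cycling microglia of the 4 libraries (y axis, CPM of the class sum, log axis), with 95% counting intervals as bars and 1 point per library. Cdkn1a and Trp53inp1 lie more than 2-fold higher in CA than in sham at each age, while the 4 points of Mdm2 lie close together.

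In non-cycling microglia, Cdkn1a and Trp53inp1 were more than 2-fold higher after CA than in sham at both ages, and Aen was in aged mice. Of the 7 genes with a mean of 10 CPM, 2 (Cdkn1a and Trp53inp1) differed by at least 2-fold between CA and sham in young mice, where 6.42% of all 9150 genes did, and both were higher, as 4.42% of all genes were. In aged mice 3 of the 7 (Cdkn1a, Trp53inp1 and Aen) differed by at least 2-fold against 13.4% of all genes, and the 3 were higher, against 5.67%. All 7 were above 1 at both ages, where 44.4% (young) and 52.8% (aged) of all genes were, with a median log2 ratio of 0.65 and 0.55 against -0.06 and 0.04 for all genes. The counting interval of the ratio lay above 1 for all 7 in young mice, as it did for 36.5% of all 9150 genes, and for 6 of the 7 in aged mice, against 45.0%, so intervals off 1 were common at this depth. Of the 3 less abundant genes, Phlda3 was above 1 and Sesn2 below it in young mice, Sesn2 was above 1 in aged mice, and the other intervals held 1. Cdkn1a reached the mean of 10 CPM through its CA libraries, so its place among the 7 depends on the difference itself. With TMM scaling in place of class totals the median of all genes moved to 0.05 in young and 0.18 in aged mice, and every ratio moved with it.

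Cdkn1a encodes p21, an inhibitor of cyclin-dependent kinases that stops cells before DNA synthesis, and lies at chr17:29090976-29100727 on the plus strand of GRCm38 (GENCODE M21, as for all positions of genes). In young mice its level was 5.20 CPM in sham (326 UMIs) and 35.7 CPM after CA (2873 UMIs), and in aged mice 10.4 CPM (324 UMIs) and 54.1 CPM (2812 UMIs). Both CA libraries were above both shams, as they were for each of the 7 genes with a mean of 10 CPM. The share of all genes with this order was not counted. Within each condition the aged library was above the young one. The CA to sham ratio was 6.86 (6.11 to 7.71) in young and 5.21 (4.64 to 5.86) in aged mice. The aged to young ratio was 1.996 (1.71 to 2.34) in sham, just under the 2-fold limit, and 1.52 (1.44 to 1.60) after CA. The non-cycling class also holds cells with a few of the cell-cycle genes used for gating. In cells with 0 of these genes, Cdkn1a stood at 5.68 CPM in young sham and 28.6 CPM in young CA. In such cells of aged mice it stood at 8.61 CPM in sham and 47.7 CPM after CA. Among these cells the CA to sham ratio was not larger in young than in aged mice. Whether the ratio differs between the ages was not tested.

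Mdm2, the ubiquitin ligase that marks p53 for degradation and closes its feedback loop (chr10:117688875-117710758, minus strand), differed little. It stood at 58.9, 63.4, 55.9 and 64.3 CPM in the 4 libraries. Its CA to sham ratio was 1.08 (1.03 to 1.12) in young and 1.15 (1.08 to 1.22) in aged mice, which is the lowest of the 7 genes in young mice and follows only Bbc3 in aged mice. Ccng1, which encodes the atypical cyclin G1 (chr11:40748552-40755311, minus strand), stood at 14.6, 20.5, 17.8 and 21.5 CPM. Its ratio was 1.41 (1.30 to 1.53) in young and 1.21 (1.09 to 1.34) in aged mice.

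Among the apoptotic genes, Bax encodes a pore-forming protein of the mitochondrial outer membrane (chr7:45461697-45466898, minus strand). It stood at 49.2 CPM in sham and 82.5 CPM after CA in young mice and at 58.6 and 85.6 CPM in aged mice, with CA to sham ratios of 1.68 (1.61 to 1.75) and 1.46 (1.38 to 1.54). Like the other genes with a mean of 10 CPM, Mdm2 among them, Bax was higher in both CA libraries than in both shams. Bbc3, which encodes PUMA, a BH3-only activator of Bax (chr7:16308393-16318205, plus strand), stood at 11, 16.9, 13.1 and 14.6 CPM. Its ratio was 1.54 (1.41 to 1.69) in young mice and 1.12 (0.990 to 1.26) in aged mice, an interval that held 1. Aen, an apoptosis-enhancing nuclease (chr7:78895854-78911209, plus strand), stood at 12.3, 19.2, 14.4 and 32.0 CPM. Its ratio was 1.56 (1.43 to 1.71) in young and 2.23 (2.01 to 2.48) in aged mice, and its aged to young ratio after CA was 1.67 (1.55 to 1.79).

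Trp53inp1 encodes a nuclear stress protein that acts with p53 and in autophagy (chr4:11156431-11174379, plus strand). It stood at 16.0 CPM in sham and 41.2 CPM after CA in young mice and at 13.7 and 38.2 CPM in aged mice. Its levels within each condition were close, and its CA to sham ratio was 2.57 (2.40 to 2.77) in young and 2.79 (2.51 to 3.10) in aged mice. Unlike Cdkn1a, it was lower in aged than in young sham, with a ratio of 0.856 (0.763 to 0.960).

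Sesn2, a sestrin that restrains mTORC1 under stress (chr4:132492032-132510501, minus strand), went opposite ways at the 2 ages. It stood at 7.58 CPM in sham and 5.77 CPM after CA in young mice and at 4.13 and 6.44 CPM in aged mice. Its CA to sham ratio was 0.761 (0.669 to 0.867) in young and 1.56 (1.27 to 1.92) in aged mice. Aged sham was the lowest of the 4 libraries, and its ratio to young sham was 0.546 (0.446 to 0.664). Whether the 2 ages differ was not tested, since each ratio rests on 2 libraries.

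Phlda3, which encodes a repressor of Akt with a pleckstrin homology domain (chr1:135766119-135769136, plus strand), was rare, with 8, 71, 16 and 17 UMIs over all non-cycling microglia of the 4 libraries. Its CA to sham ratio was 6.90 (3.32 to 16.6) in young mice and 0.638 (0.303 to 1.35) in aged mice. On the log2 scale the young ratio ran from 0.74 to 4.69 over the processing alternatives. Eda2r, a receptor of the tumour necrosis factor family for a form of ectodysplasin (chrX:97333840-97377216, minus strand), had 7, 19, 11 and 11 UMIs. Its ratios of 2.11 (0.850 to 5.94) and 0.60 (0.236 to 1.53) could not be told from 1 at this depth.

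Of the 7 genes with a mean of 10 CPM, 0 differed by at least 2-fold between aged and young sham, where 2.20% of all genes did and 2.04% were higher. After CA 0 did, against 4.14% of all genes, and 1.43% of all genes were higher. Of the 7, 5 were above 1 in each comparison, where 41.0% (sham) and 52.4% (CA) of all genes were. The median log2 ratio of the 7 was 0.25 in sham and 0.05 after CA, against -0.05 and 0.02 for all genes. In sham the counting interval lay above 1 for 5 of the 7, where it did for 25.8% of all genes, and below 1 for Trp53inp1, where it did for 40.3%. The Cdkn1a ratio in sham passed 2-fold in 5 of the 12 alternative ways of counting, as given with the processing alternatives. Each library serves in 2 of the 4 comparisons, so the comparisons are not independent.

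**Figure D2:**
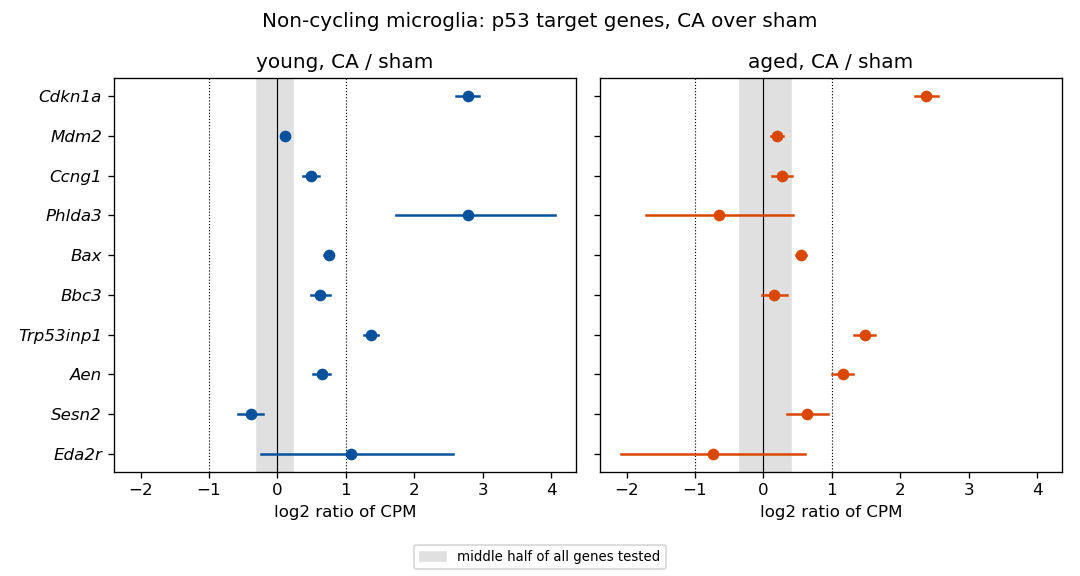
CA to sham ratio of each gene in non-cycling microglia (x axis, log2 of the ratio of CPM) in young (left) and aged mice (right), with 95% counting intervals, dotted lines at 2-fold and a grey band for the middle 50% of 9150 genes. Cdkn1a and Trp53inp1 lie past 2-fold at both ages and Mdm2 lies inside the band at both.

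The genes that act around p53 did not share this direction. Of 11 core genes and regulators, 8 had a mean of 10 CPM. Of these, 0 were at least 2-fold higher after CA at either age, against 4.42% (young) and 5.67% (aged) of all genes. At least 2-fold lower were 0 in young and 1 in aged mice, against 183 and 707 of all 9150 genes. Trp53, which encodes p53, stood at 71.3 CPM in sham and 60.2 CPM after CA in young mice and at 67.7 and 38.2 CPM in aged mice, with ratios of 0.845 (0.811 to 0.88) and 0.564 (0.531 to 0.60). Trp53bp1, a DNA break repair protein, was the 1 gene past 2-fold, at 42.3 CPM in aged sham and 18.6 in aged CA. Mdm4, the partner of Mdm2 that holds p53 inactive, had ratios of 0.958 in young and 1.21 in aged mice, and Chek2, a kinase that acts on p53 after DNA breaks, had levels of 15.0, 19.5, 15.0 and 15.2 CPM.

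A list of 30 other p53 targets was split. Of the 17 with a mean of 10 CPM, 8 were above 1 and 9 below at each age, where 44.4% (young) and 52.8% (aged) of all genes were above. Their median log2 ratio was -0.06 in young and -0.20 in aged mice. At least 2-fold higher were 3 in young and 2 in aged mice, against 4.42% and 5.67% of all genes. At least 2-fold lower were 0 at each age, against 183 and 707 of all 9150 genes. Ddit4, which restrains mTORC1 and is also induced by glucocorticoids and low oxygen, stood at 14.6, 144, 4.04 and 96.6 CPM in the 4 libraries. Rps27l, a ribosomal protein paralog, stood at 59.7, 124, 80.2 and 155 CPM, with ratios of 2.07 and 1.93. Ddb2, a damage sensor of nucleotide excision repair, was lower after CA, at 38.0 and 27.3 CPM in young and 31.0 and 22.7 CPM in aged sham and CA. Dglucy was lower too, at 107 and 73.1 CPM and at 109 and 63.3 CPM. Zmat3, an RNA-binding p53 target, had ratios of 1.26 and 1.16. Ddit4 reached the mean of 10 CPM only with its CA libraries counted, so its place in these counts depends on the difference itself.

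In the BCL-2 family, to which Bax and Bbc3 belong, 9 of 11 genes in young and 10 of 11 in aged mice were above 1. Of all genes, 44.4% (young) and 52.8% (aged) were. At least 2-fold higher were 3 of the 11 at each age, against 4.42% and 5.67% of all genes, and the median log2 ratios were 0.69 and 0.72. The antiapoptotic Bcl2a1d stood at 4.45, 21.6, 10.2 and 43.1 CPM and Bcl2a1a at 25.8, 70.2, 52.1 and 127 CPM. The BH3-only genes Bid and Bcl2l11, relatives of Bbc3, had ratios of 0.768 and 0.777 in young and 0.956 and 1.04 in aged mice. Of 6 other inhibitors of cyclin-dependent kinases, 2 had a mean of 10 CPM, and 1 of the 2 was at least 2-fold higher at each age. Cdkn2d stood at 5.58, 13.6, 7.15 and 24.1 CPM, and Cdkn1b had ratios of 1.10 and 0.733. Like Cdkn1a, Bcl2a1d and Cdkn2d reached the mean of 10 CPM through their CA libraries. Their places in these counts thus depend on the difference itself.

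Other stress programmes were counted in the same way, beside the 4.42% (young) and 5.67% (aged) of all genes that were at least 2-fold higher. At least 2-fold lower were 183 (young) and 707 (aged) of all 9150 genes. Of 8 genes that respond to glucocorticoids, 5 in young and 6 in aged mice were at least 2-fold higher after CA and 0 were lower by that much, led by Klf9 with ratios of 22.6 and 30.5 and Zbtb16 with ratios of 56.6 and 11.2. Of 6 genes of the ATF4 and CHOP response, the pathway of amino acid and unfolded protein stress, 1 in young and 2 in aged mice were at least 2-fold higher and 0 were lower by that much. Psat1, an enzyme of serine synthesis, had ratios of 6.28 and 4.24, and Slc7a11, the cystine importer, had ratios of 1.13 and 3.70. Of 7 immediate early genes, which also mark dissociation, 1 was at least 2-fold higher at each age and 1 in aged mice lower. Between aged and young sham, 5 of these 7 were at least 2-fold higher in aged sham, as were 2.04% of all genes. Klf9 and Zbtb16 reached the mean of 10 CPM through their CA libraries, and Slc7a11 through aged CA. Their places in these counts thus depend on the difference itself. The part of these programmes in the levels of the p53 targets was not tested.

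The higher class sums came with more cells in which a transcript was seen. With each cell thinned to 2000 UMIs, Cdkn1a was detected in 0.789% (sham) and 4.33% (CA) of non-cycling microglia of young mice and in 1.52% and 7.64% of those of aged mice. Before thinning the shares were 3.01%, 14.4%, 3.25% and 25.4%, which also follow depth. In neurons carried through the sort and thinned to the same depth, the shares were 0%, 2.22%, 0% and 0.694%. These are 0 of 114, 2 of 90, 0 of 189 and 1 of 144 cells. The share of microglia was above that of neurons in each library. In both sham libraries it was below that of the young CA neurons, which rests on 2 cells. For Trp53inp1 the thinned shares in microglia were 2.80%, 8.31%, 2.53% and 7.64%, and for Mdm2 they were 11.1%, 11.8%, 10.4% and 11.7%. Cells with exactly 2 of the 10 genes made up 3.22%, 7.16%, 4.19% and 8.82%, and cells with none made up 72.9%, 60.2%, 71.3% and 55.5%.

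Microglia in cycle, gated by UMIs of at least 4 of 18 genes of DNA synthesis and mitosis, had more Cdkn1a and Bax than non-cycling microglia of the same library. Trp53inp1 was lower in them in the 2 CA libraries alone. There were 28 such cells in sham and 897 after CA in young mice, and 36 and 75 in aged mice. edgeR's quasi-likelihood test with the library as block and Benjamini-Hochberg adjustment, which asks for a difference common to the 4 libraries, called 2 of the 8 tested members higher, where 16.6% of 10979 genes were, and 1 lower, where 11.4% were. In young mice Cdkn1a stood at 133 CPM in sham (48 UMIs) and 102 CPM after CA (1846 UMIs), and in aged mice at 358 CPM (98 UMIs) and 71.6 CPM (121 UMIs). The cycling level was the higher one in each of the 4 libraries, with the smallest gap in aged CA (71.6 against 54.1 CPM). The share of all genes that were higher in each library was not counted. The fitted difference was 5.79-fold (log2 2.53, SE 0.60, adjusted p = 0.00725). It was 3.20-fold without aged sham, 10.1-fold without young CA and 11.8-fold without aged CA.

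Cdkn1a was higher in the cells past the cycling gate in each library, but a few cells gave many of the UMIs where cells were few. In young sham 35 of the 48 Cdkn1a UMIs (72.9%) came from 3 cells. Of the 48, 17 (35.4%) came from 1 cell, and the level without these 17 was 86.0 CPM. In aged sham 18 of 98 (18.4%) came from 1 cell, and the level without them was 292 CPM. Cycling cells were also deeper than non-cycling ones, with a median of 11420, 20156, 4062 and 21244 UMIs, and had a median microglial marker share of 0.837 to 0.867 of clear microglia. Without a library block the adjusted p was 0.0830.

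In non-cycling cells of the 4 libraries Bax stood at 49.2, 82.5, 58.6 and 85.6 CPM. In cycling cells it stood at 74.9, 121, 183 and 90.0 CPM (27, 2206, 50 and 152 UMIs), close to the non-cycling level in aged CA. It was higher than in non-cycling cells in each library, 1.58-fold in the fit (log2 0.66, SE 0.18, edgeR adjusted p = 0.0170), a call that was lost without young CA (adjusted p = 0.0911) and without a block (0.168). In young mice Trp53inp1 stood at 30.5 CPM in sham (11 UMIs) and 18.1 CPM after CA (329 UMIs), and in aged mice at 14.6 CPM (4 UMIs) and 16.0 CPM (27 UMIs). It was lower than in non-cycling cells in the 2 CA libraries and not in the 2 shams. The fitted value was 0.565-fold (log2 -0.82, SE 0.27, edgeR adjusted p = 0.0361), and the call was lost without young CA (0.597), without aged CA (0.191), without a block (0.541), with 2 more cycling markers required (0.0513) and with DESeq2 (0.345).

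The other members did not pass in cycling cells. Ccng1 was 1.38-fold (edgeR adjusted p = 0.123), with 30.5, 25.5, 43.8 and 19.5 CPM, and passed without aged CA (0.0383). Mdm2 was 1.08-fold (0.602), Aen 1.30-fold (0.281), Sesn2 1.14-fold (0.660) and Bbc3 0.927-fold (0.823). Phlda3, with 2, 22, 3 and 0 UMIs, and Eda2r, with 0, 3, 0 and 0 UMIs, were too low to test. Of all 10979 genes tested, 16.6% were higher in cycling cells and 11.4% lower. Among related genes, 4 of 6 other inhibitors of cyclin-dependent kinases were higher in cycling cells, among them Cdkn2c (log2 3.74) and Cdkn2d (log2 1.56). Of 9 core genes tested 3 were higher and 0 lower, among them Chek2 (log2 1.64), and of 21 other p53 targets 3 were higher and 4 lower, with Rps27l at log2 1.06 (adjusted p = 0.000583) and Ddit4 at log2 -1.93.

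**Figure D3:**
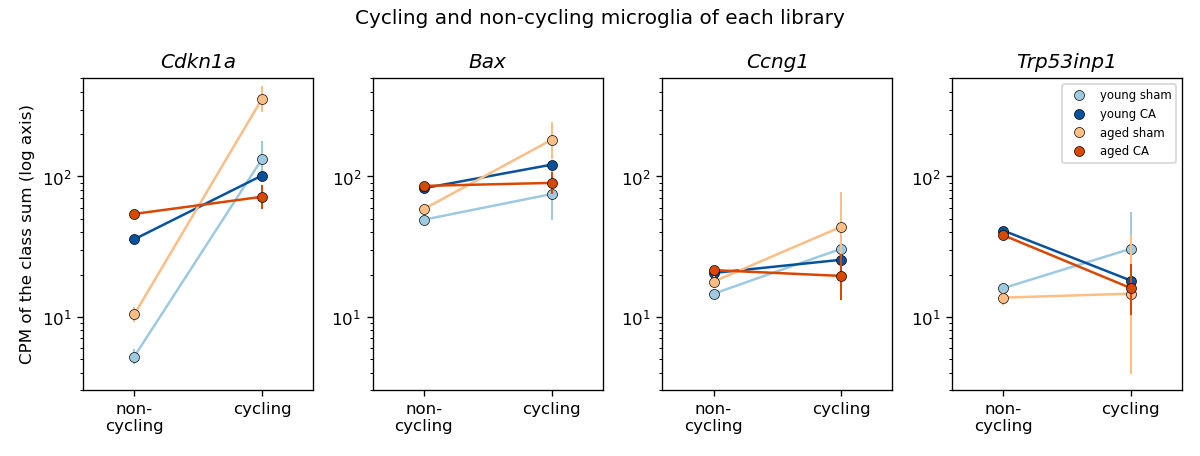
Level of Cdkn1a, Bax, Ccng1 and Trp53inp1 in non-cycling and cycling microglia of each library (y axis, CPM of the class sum, log axis), with 95% counting intervals and a line for each library. Cdkn1a and Bax are higher in cycling cells in each of the 4 libraries, and Trp53inp1 is lower in the 2 CA libraries.

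Within cycling microglia the CA libraries were not above the shams for most of these genes. The Cdkn1a ratio of CA to sham was 0.763 (0.573 to 1.04) in young and 0.20 (0.152 to 0.264) in aged mice, where the non-cycling ratio was 5.21. For Bax it was 1.62 (1.11 to 2.46) in young and 0.493 (0.356 to 0.693) in aged mice. Mdm2 stood at 0.577 (0.367 to 0.939) and Ccng1 at 0.446 (0.224 to 0.948) in aged mice. Of the 7 members with a mean of 10 CPM in cycling cells, 5 had an interval below 1 in aged mice, where 14.6% of 9373 genes did, and 0 had one above. The aged sham side of these ratios is 36 cells, and of the gated cells 12 in aged sham and 46 in aged CA had only 4 or 5 cycling markers, near the limit of the gate.

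The young CA library had enough cycling cells to follow the genes along the number of cycling markers seen. In cells with 0, 1, 2 to 3, 4 to 7, 8 to 12 and 13 to 18 markers (5291, 1976, 836, 346, 255 and 296 cells), Cdkn1a stood at 28.6, 40.8, 49.4, 64.6, 90.4 and 143 CPM. It was higher at each step, and Bax was higher at each step up to 133 CPM at 8 to 12 markers, from 76.5 CPM at 0 markers. Trp53inp1 was lower at each step, from 45.5 CPM to 15.9 CPM, and Mdm2 kept between 61.9 and 66.8 CPM. Median depth went from 7510 to 23080 UMIs along the same steps, and its part was not tested. In aged CA, Cdkn1a stood at 47.7, 62.1, 68.6, 52.9, 109 and 113 CPM, with 9 and 12 cells in the last 2 steps. The order in young sham was different over the first 3 steps, at 5.68, 4.19 and 1.90 CPM in 6540, 1287 and 190 cells, and the last 3 stood at 23.8, 73.9 and 313 CPM in 14, 9 and 5 cells. In aged sham Cdkn1a stood at 8.61, 13.7 and 20.9 CPM over the first 3 steps and at 173, 571 and 559 CPM in the 25, 7 and 4 cells of the last 3.

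**Figure D4:**
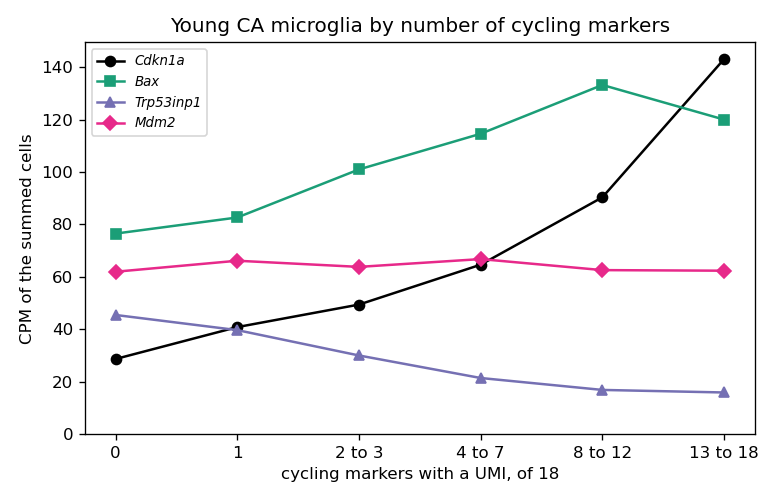
Level of Cdkn1a, Bax, Trp53inp1 and Mdm2 (y axis, CPM of the summed cells) in young CA microglia by the number of cycling markers with a UMI (x axis). Cdkn1a is higher at each step, from 28.6 to 143 CPM, Trp53inp1 is lower at each step, and Mdm2 is flat.

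Non-cycling microglia with a Cdkn1a UMI also carried more Bax. After thinning to 2000 UMIs there were 58, 334, 56 and 345 positive cells in the 4 libraries, against 7295, 7376, 3622 and 4169 negative cells. Of 7 other members tested, edgeR's quasi-likelihood test called 1 higher, where 3.35% of 8534 genes were, and 0 lower, where 1.30% were. In young mice Bax stood at 112 CPM in positive and 43.9 CPM in negative cells of sham and at 129 and 72.3 CPM after CA. In aged mice it stood at 89.3 and 54.4 CPM in sham and at 98.6 and 80.4 CPM after CA. Bax rested on 13, 86, 10 and 68 UMIs in the positive cells of the 4 libraries. It was higher in positive cells of each library, 1.60-fold in the fit (log2 0.68, SE 0.14, edgeR adjusted p = 0.00146), but not past the threshold without young CA (0.219) or without a block (0.826), and DESeq2 gave no member an adjusted p (Bax 1.66-fold, unadjusted p = 0.000549).

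Ccng1 was 1.64-fold in positive cells (edgeR adjusted p = 0.0781), with 25.9 and 12, 44.9 and 16.9, 26.8 and 15.3, and 15.9 and 22.2 CPM in positive and negative cells of the 4 libraries. Only aged CA went the other way, and without it the edgeR adjusted p was 0.000799. The positive cells held 3, 30, 3 and 11 Ccng1 UMIs and 1, 8, 1 and 6 Sesn2 UMIs, so the sham values rest on few UMIs. Aen was 1.5-fold (0.0990), Bbc3 1.51-fold (0.198), Sesn2 1.89-fold (0.192), Mdm2 1.21-fold (0.346) and Trp53inp1 1.09-fold (0.820), and none of these passed.

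The 10 genes with the smallest adjusted p among those higher in positive cells were the chemokines Ccl4 (3.30-fold), Ccl2 (2.79-fold), Ccl3 (2.73-fold) and Ccl12 (2.37-fold, higher in 3 of 4 libraries), the interferon-induced Isg15 (2.30-fold) and Ifitm3 (1.88-fold), the receptor Gpr84 (1.98-fold), the ferritin chains Fth1 (1.58-fold) and Ftl1 (1.64-fold) and the protease inhibitor Cstb (1.87-fold). Among the genes with the smallest adjusted p of those lower were Fhit (0.677-fold), Lysmd4 (0.672-fold), Igf1r (0.681-fold), Gm35188 (0.687-fold), Lag3 (0.630-fold), Nav2 (0.730-fold), Csmd3 (0.728-fold), Smyd3 (0.704-fold) and Abca9 (0.702-fold). Of the p53 lists, 0 of 8 core genes and 1 of 15 other targets, Rps27l (log2 0.75, adjusted p = 5.27e-05), passed. Of all genes tested, 3.35% were higher. Slc7a11 (log2 1.68, edgeR adjusted p = 2.87e-09) and the glucocorticoid-responsive Sgk1 (log2 0.43, 0.00846) also passed. Of 7 immediate early genes, which also mark dissociation, 2 passed, Atf3 (log2 0.78, 0.000579) and Ier2 (log2 0.46, 0.0256). Of 11 genes of the BCL-2 family 2 passed, Bcl2a1b (log2 0.51, 0.000741) and Bcl2a1d (log2 0.82, 0.00709). Positive cells had been deeper before thinning, with a median of 9250 against 7242, 12234 against 9394, 8794.5 against 5977.5 and 11805 against 10892 UMIs. Their median microglial marker share was lower, 0.943 against 0.978, 0.918 against 0.960, 0.874 against 0.981 and 0.823 against 0.936 of clear microglia. The part of either was not tested.

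Other immune classes were compared with the non-cycling microglia of the same libraries. Border-associated macrophages, the macrophages of meninges and vessels, numbered 101, 62, 37 and 45 cells in the 4 libraries. edgeR's quasi-likelihood test against non-cycling microglia called 1 of 7 members higher (14.1% of 10494 genes) and 0 lower (11.4%). Their Cdkn1a stood at 17.1 CPM (18 UMIs), 77.1 CPM (46 UMIs), 5.10 CPM (2 UMIs) and 271 CPM (123 UMIs), and in aged CA 34 of 45 cells held a UMI. Aged sham was the 1 library below its microglia. The fitted difference was 3.10-fold (log2 1.63, SE 0.34, adjusted p = 0.00555), which missed the threshold without aged CA (0.0523) and without a block (0.230).

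Both Cdkn1a and Trp53inp1 were higher after CA in border-associated macrophages, as in microglia. The Cdkn1a ratio was 4.51 (2.57 to 8.27) in young and 53.1 (14.4 to 443) in aged mice, the latter on 2 UMIs in aged sham. Trp53inp1 stood at 11.4, 67.0, 5.10 and 55.1 CPM, with ratios of 5.89 (3.03 to 12.3) and 10.8 (2.69 to 94.0).

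T cells, with 39, 20, 147 and 95 cells, had 4 of 7 members higher than microglia (21.7% of 9106 genes) and 0 lower (22.8%). Trp53inp1 stood at 88.0, 128, 64.9 and 91.6 CPM, 4.16-fold the microglial level in the edgeR fit (adjusted p = 8.25e-05), and Ccng1 at 30.6, 46.7, 45.8 and 55.2 CPM, 2.69-fold (adjusted p = 0.000347). Both were above microglia in each library. Bbc3 stood at 9.56, 35.0, 19.1 and 159 CPM, 3.15-fold (adjusted p = 0.0370), and passed neither without young CA (0.0670) nor without aged CA (0.156). The aged CA value rests on 144 UMIs in 58 of 95 cells with at most 7 in 1 cell, and its ratio to aged sham was 8.31 (5.51 to 12.9). Bax was 1.52-fold (adjusted p = 0.0471), a call lost without young sham (0.173), without young CA (0.112), without aged sham (0.167), without a block (0.0866) and with no filter on low counts (0.201). Cdkn1a was 0.719-fold (adjusted p = 0.400), at 9.56, 5.84, 11.6 and 18.8 CPM.

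Neutrophils were tested in young CA, aged sham and aged CA, with 26, 32 and 65 cells. Of 8 members, 3 were higher (23.1% of 8267 genes) and 2 lower (23.2%) than in microglia. Trp53inp1 stood at 363, 124 and 237 CPM in these 3 libraries, 13.3-fold the microglial level in the edgeR fit (adjusted p = 1.30e-05). Sesn2 stood at 13, 28.1 and 28.0 CPM on 4, 10 and 29 UMIs, 7.43-fold (adjusted p = 0.000638). Mdm2 stood at 77.7, 121 and 97.6 CPM, against 63.4, 55.9 and 64.3 CPM in microglia, and was 2.74-fold (edgeR adjusted p = 0.00232). Trp53inp1, Sesn2 and Mdm2 were each above microglia in the 3 libraries. The fit scales by TMM, so its fold changes are not ratios of these CPM. For these 3 genes the fitted fold was larger than the ratio of CPM in each library. For Bax, at 82.5, 58.6 and 85.6 CPM in microglia, the fitted fold was less low than that ratio in each library. Bax, at 35.6, 14.0 and 26.1 CPM, was 0.556-fold (adjusted p = 0.0311) and missed the threshold with DESeq2 (0.0910), without a block (0.0636), and without young CA, aged sham or aged CA (0.0842, 0.0920 and 0.115). Aen, at 2, 1 and 4 UMIs, was 0.301-fold (adjusted p = 0.0154) and missed it with DESeq2 (0.0585) and without aged CA (0.182). Cdkn1a was 0.583-fold (adjusted p = 0.0938).

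Monocytes had 20 cells or more only in the 2 CA libraries and were not tested. In young CA (240 cells) and aged CA (57 cells) their Cdkn1a stood at 145 CPM (695 UMIs) and 140 CPM (227 UMIs). With 13 young sham and 16 aged sham cells it stood at 109 CPM (31 UMIs) and 17.4 CPM (6 UMIs). Their Bax stood at 120, 208, 101 and 120 CPM in the 4 libraries, and their Trp53inp1 at 17.6, 16.3, 5.80 and 14.8 CPM.

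Ordered by the mean level over libraries with at least 20 cells, Cdkn1a stood first in cells gated as oligodendrocytes (187 CPM ± 264, SD, n = 2), a place that rests on aged CA, with 373 CPM against 0 UMIs in aged sham, and there on few cells, since 60 of 76 UMIs came from 3 cells. Next came cycling microglia (166 ± 130, n = 4), monocytes (143 ± 3.61, n = 2) and border-associated macrophages (92.5 ± 123, n = 4). Non-cycling microglia (26.3 ± 22.8, n = 4), T cells (11.4 ± 5.43, n = 4), neutrophils (11.3 ± 5.12, n = 3), neurons (5.02 ± 4.30, n = 4) and B cells (4.36 ± 2.27, n = 2) followed. The SDs span unlike conditions, and the ranges of mean ± SD overlapped between all neighbours in this order. Trp53inp1 had another order, with neutrophils (241 ± 120, n = 3), B cells (222 ± 201, n = 2) and T cells (93.2 ± 26.3, n = 4) at the top and monocytes (15.6 ± 1.05, n = 2) and neurons (8.89 ± 2.79, n = 4) at the foot. Mdm2 stood at 60.7 ± 3.92 (n = 4) in non-cycling microglia and ran from 45.5 ± 11.3 in border-associated macrophages (n = 4) to 117 ± 43.6 in oligodendrocytes (n = 2).

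**Figure D5:**
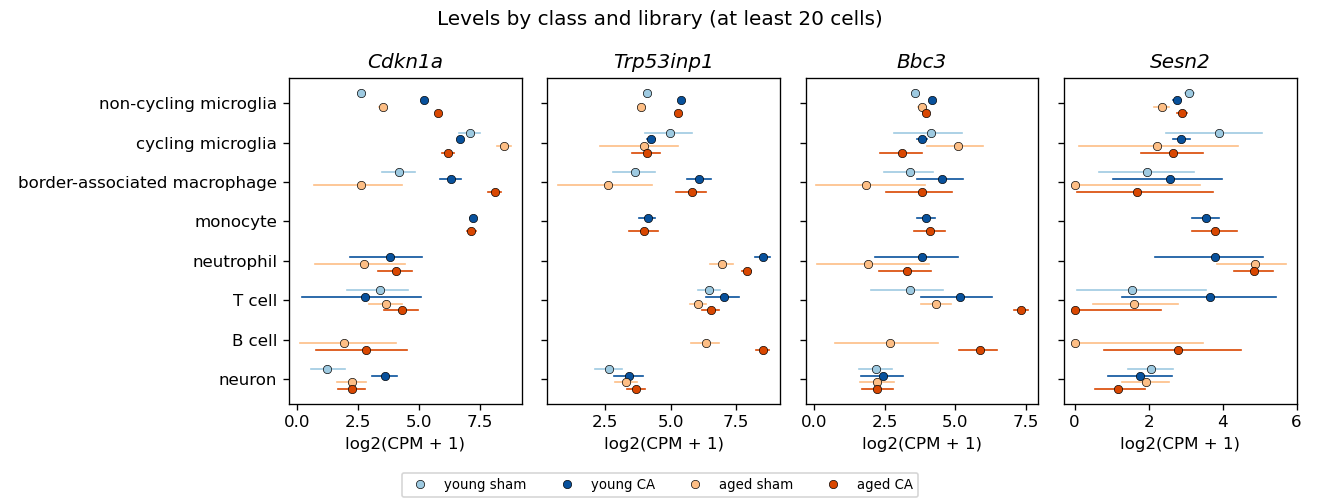
Level of Cdkn1a, Trp53inp1, Bbc3 and Sesn2 by class (x axis, log2 of CPM + 1) in each library with at least 20 cells of the class, with 95% counting intervals. Cdkn1a is high in cycling microglia and monocytes, Trp53inp1 in neutrophils, Bbc3 in T cells of aged CA, and Sesn2 in neutrophils.

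Over 30 sums of a class in a library, the genes whose log2(CPM + 1) followed that of Cdkn1a most closely of 10330 included Pofut2 (Spearman rho 0.796), Cxcl10 (0.778), Mfsd5 (0.774) and Slc25a39 (0.765). The members compared had lower values, at 0.558 for Bbc3, 0.550 for Aen, 0.537 for Bax, 0.50 for Ccng1, 0.441 for Mdm2 and 0.0874 for Trp53inp1. In that order they ranked 433, 490, 568, 814, 1349 and 5392 in likeness to Cdkn1a among these genes. Phlda3, Sesn2 and Eda2r had too low a mean level over the sums to be compared. The sums share 4 libraries and their depth, so these values are descriptions only.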

How the data were processed

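Per the submitters' processing notes, the authors ran Cell Ranger 7.1.0 on mm10 and deposited raw UMI counts per gene and barcode. The annotation, how cells were called, and the strand and intron settings are not given in the sources used here. With young before aged mice and sham before CA, totals were 72648041, 115892682, 44277472 and 70924569 UMIs over 9038, 10794, 7700 and 6794 barcodes. A barcode was taken as a cell from 500 UMIs and 200 genes up, if its mitochondrial share was 10% or less.

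Microglia had UMIs of at least 5 of 10 markers, a marker share of at least 0.3 of the median of clear microglia (at least 9 markers), and no other list passing. Other classes needed at least 4 markers (5 for lists of 10, 3 for erythroid, mural and endothelial cells) and a relative microglial share under 0.2 (0.6 for border-associated macrophages). A cell passing several of these other lists went to the list with the largest fraction of its markers detected. It was left out on a tie or where its relative microglial share was not under the limit. Doublets were treated in no other way and no doublet caller was run, so doublets of other classes can remain. The thresholds were set after marker distributions had been seen. The members and lists were chosen with earlier results of these data known.

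UMIs were summed per class and library and divided by the class total (CPM). Ratios between libraries carry exact conditional binomial 95% intervals. Genes with a mean of 10 CPM over the 4 libraries in non-cycling microglia were the background, with 0.5 UMIs added for log2 ratios. With 1 library a group no test between groups was made. Classes of the same library were compared with edgeR 4.0.16 (limma 3.58.1, R 4.3.3), the quasi-likelihood test with TMM and the library as block, threshold 0.05 after Benjamini-Hochberg adjustment over all genes, where a class had at least 20 cells in at least 3 libraries. Class markers were not tested. The 4 libraries are 4 conditions, so these p-values measure the spread of a difference over conditions. The library block rests on both classes coming from the same pool. DESeq2 1.42.0 was an alternative. Both scripts were tested on simulated data. Other software was Python 3.11.15, numpy 2.4.6, scipy 1.17.1 and pandas 2.3.3.

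Named outside the 10 members were, per list, the 2 highest and 2 lowest by mean log2 ratio of CA to sham, Trp53, Mdm4 and Zmat3, the 10 genes with the smallest adjusted p in each direction for Cdkn1a-positive cells, and the 5 genes most like Cdkn1a; 2 genes that this rule names are not reported here. Other genes named in the results on cycling and Cdkn1a-positive cells (Cdkn2c, Atf3, Bcl2a1b) were chosen after their values were seen. Positions came from GENCODE M21, where 10 of 10 members matched, and promoter windows from RefSeq on GRCm38.p6. Bax and Sesn2 overlap a gene on their own strand and Cdkn1a one on the other strand, and without the strand setting reads of the last pair cannot be told apart. Ddit3 was on 2 rows and is not reported.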

Additional observations from a re-analysis of the deposited data

Results flagged for a closer look

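Ratios of CA to sham that pointed opposite ways in 2 groups of cells or at the 2 ages, each with a counting interval off 1, were looked at again. None of these differences was tested, since each ratio compares 2 libraries. In aged mice Cdkn1a had a ratio of 5.21 in non-cycling and 0.20 in cycling microglia, Mdm2 1.15 and 0.577, Ccng1 1.21 and 0.446, and Bax 1.46 and 0.493. The 36 cycling cells of aged sham stand behind each of the 4 lower values. Bax in cycling microglia had a ratio of 1.62 in young and 0.493 in aged mice, with 28 cycling cells in young sham. Sesn2 in non-cycling microglia had a ratio of 0.761 in young and 1.56 in aged mice, where aged sham was the lowest library.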

How the results depend on the processing

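Of 1776 ratios of members and named genes under the alternatives, 1517 moved by less than the counting interval, 258 moved by more and 1 that had been past 2-fold changed sign, Eda2r in young mice, at log2 -0.80 with cells weighted equally. Bbc3 in aged mice was -0.10 after thinning to 2000 UMIs, Ccng1 in aged against young sham was -0.04 without the deepest cells, and Cdkn1a in aged against young sham ran from 0.76 to 1.18. The latter made 1 member at least 2-fold higher with cells weighted equally, without mitochondrial and haemoglobin genes in the totals, from 2000 UMIs per cell, thinned, or with cycling cells included. Over genes with a mean of 2 CPM, 640 were at least 2-fold higher and 484 lower after CA in young mice, 825 and 1483 in aged mice, 596 and 42 with age in sham, and 380 and 455 with age after CA. With age in sham, against 187 higher and 14 lower, there were 317 and 25 with cells weighted equally, 25 lower after thinning, and 286 higher with mixed cells counted as microglia, an alternative added after seeing the data.

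Of 293 fold changes of members between classes, 247 kept direction and call, 26 lost the call, 5 gained it and 15 changed sign, and the changes of sign were in members that had not passed. For cycling microglia without a replicate block, 0 members were higher and 0 lower in edgeR (3 had an unadjusted p under 0.05; genes 641 and 113), while 1823 and 1250 genes were called with it. Thinning before gating gave 821 and 713 genes of 3594 tested, where only 4 members were tested and Trp53inp1 was not. With DESeq2 and with 2 more cycling markers 0 members were lower. Leaving out 1 library gave 1 to 3 members higher and 0 to 1 lower, and 885 to 1728 genes higher and 467 to 1337 lower. Log2 values changed sign for Mdm2 (-0.45 thinned before gating, -0.026 to 0.29 with 1 library left out), Bbc3 (0.038 with DESeq2, 0.089 without the block, -0.38 to 0.20 with 1 library left out) and Sesn2 (-0.031 with 1 marker fewer).

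For Cdkn1a-positive cells, members higher were 0 without the block, 2 with no filter on low counts and 3 thinned to 5000 UMIs. DESeq2 gave no member an adjusted p, so it has no count of members. Genes higher and lower were 116 and 58 with DESeq2, 141 and 189 with no filter, and 0 and 0 without the block, where edgeR gave 451 genes an unadjusted p under 0.05. Leaving out 1 library gave 0 to 3 members and 33 to 217 genes higher and 1 to 76 lower, the fewest without young CA. Ccng1 ran from -0.080 without young CA to 1.34 without aged CA.

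For border-associated macrophages, members higher were 0 without the block (genes 841 and 723) and 0 without aged CA, and genes lower were 2067 with no filter. With 1 library left out, Bax ran from -0.17 to 0.29 (-0.086 with no filter), Bbc3 from -0.40 to 0.19 and Trp53inp1 from -0.0030 to 0.53. For neutrophils, members lower were 0 with DESeq2, 1 without the block and 0 to 1 with 1 library left out. Genes lower were 3439 with no filter and 1206 (without aged CA) to 1988 with 1 library left out, and Bbc3 ran from -0.33 to 0.19. For T cells, members higher were 2 without young CA, genes lower were 3714 with no filter, and with 1 library left out Cdkn1a ran from -0.90 to 0.014 and Mdm2 from -0.25 to 0.14. The cause of these changes was not tested. Depth limits Phlda3, Eda2r and all values in cycling cells of the sham libraries.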

Other observations

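Outside the tested classes, a few cells carried high levels of single members. Among cells gated as oligodendrocytes, the myelin-forming cells, Cdkn1a had 76 UMIs in 15 of 27 aged CA cells, or 373 CPM, against 0 in 40 aged sham cells. One cell gave 30 of the 76 UMIs (39.5%), and the level without them was 226 CPM. The same aged CA cells held 4 of 8 markers of border-associated macrophages at 496 CPM, against 3.29 CPM in aged sham, and the part of this was not tested. Among B cells, Trp53inp1 stood at 363 CPM in aged CA, with 122 UMIs in 12 of 37 cells and 75 of them in 3 cells, and at 79.9 CPM in aged sham.

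In neurons that passed through the CD45 sort, Cdkn1a stood at 1.35, 11.2, 3.74 and 3.75 CPM on 6, 28, 16 and 18 UMIs, with young before aged mice and sham before CA. The ratio of CA to sham in young mice was 8.33 (3.39 to 24.6). Few cells gave these UMIs: 11 of the 28 in young CA came from 1 cell and 20 from 3 cells, and 12 of the 16 in aged sham from 1 cell. Without the UMIs of the top cell the 4 levels were 0.899, 6.82, 0.934 and 2.92 CPM. For Bax it was 2.09 (1.24 to 3.56) in the same cells.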
